A study of Mus musculus with 12 samples.

Results

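The livers compared here came from C57BL/6J mice of wild-type genotype given a high-fat diet together with 2% DSS (HFD_DSS, 3 libraries), against livers of mice on the CD diet alone (CD, 3 libraries). Genes were compared when 3 or more of these 6 libraries reached 1 FPKM, which left 10295 of 54532 gene IDs. HFD alone and CD with 2% DSS (CD_DSS), 3 libraries each, share the strain, genotype and tissue and entered the same fit. Each value is FPKM, a fragment count scaled by exon length and by the size of its library, from total RNA of whole liver. What CD stands for, and the age, sex, feeding time and DSS schedule of the mice, were not stated in the labels. The labels also do not say whether each library came from its own animal, so every p-value measures the spread between these libraries, which may be technical.

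DSS (dextran sulfate sodium) is a polysaccharide that injures the lining of the colon, and blood from the gut reaches the liver through the portal vein. Hepatocytes answer inflammatory cytokines, chiefly interleukin-6 acting through the factor STAT3, by secreting acute phase proteins. The same cells build fatty acids from carbohydrate, dispose of nitrogen as urea and glutamine, make bile acids and oxidise drugs with cytochrome P450 enzymes. Enzymes of these pathways are spread unevenly along the liver lobule, some near the portal vein and some around the central vein.

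Promoters are shown for 2 acute phase genes and 2 genes of endoplasmic reticulum (ER) protein quality control, because genes of both kinds were higher in HFD_DSS and these hold a motif of their pathway. Each sequence is the 250 bases before the RefSeq start of the gene in build GRCm38.p6, 5′ to 3′ on the strand of the gene. Apcs encodes serum amyloid P component (chr1:172895055-172895304, minus strand) and Fgb the beta chain of fibrinogen (chr3:83049864-83050113, minus strand). Derl3 encodes a protein of ER-associated degradation (chr10:75893148-75893397, plus strand) and Dnajc3 an ER co-chaperone (chr14:118937682-118937931, plus strand). The capitals mark TTCNNNGAA, the STAT motif, in Apcs and Fgb. In Dnajc3 they mark the ER stress response element, CCAAT and CCACG with 9 bases of any kind between them, and in Derl3 the same element read on the other strand.
Apcs: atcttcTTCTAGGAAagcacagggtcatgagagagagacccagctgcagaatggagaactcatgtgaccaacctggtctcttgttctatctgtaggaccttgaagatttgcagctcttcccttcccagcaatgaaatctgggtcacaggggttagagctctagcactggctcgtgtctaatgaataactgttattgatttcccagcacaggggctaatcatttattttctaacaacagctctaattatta
Fgb: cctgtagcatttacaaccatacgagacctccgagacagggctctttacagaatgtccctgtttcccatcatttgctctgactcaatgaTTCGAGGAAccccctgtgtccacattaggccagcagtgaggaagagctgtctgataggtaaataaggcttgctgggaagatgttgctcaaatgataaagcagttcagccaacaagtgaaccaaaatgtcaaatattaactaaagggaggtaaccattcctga
Derl3: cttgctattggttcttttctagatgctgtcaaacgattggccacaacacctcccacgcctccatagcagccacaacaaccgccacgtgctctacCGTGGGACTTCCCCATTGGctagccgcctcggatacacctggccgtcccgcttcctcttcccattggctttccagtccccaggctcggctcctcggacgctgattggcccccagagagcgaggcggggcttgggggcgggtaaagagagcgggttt
Dnajc3: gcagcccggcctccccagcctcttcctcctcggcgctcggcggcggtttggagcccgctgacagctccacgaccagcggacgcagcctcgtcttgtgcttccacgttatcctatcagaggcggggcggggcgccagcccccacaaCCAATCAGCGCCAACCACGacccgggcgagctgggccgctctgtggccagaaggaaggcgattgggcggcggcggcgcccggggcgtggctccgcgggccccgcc

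The motifs were searched on both strands of a 300-base window, 250 bases before to 50 after the start, in the 7694 tested genes with a RefSeq promoter. The STAT motif was present in 6.59% of these promoters and in 6 of 21 promoters of positive acute phase genes. The ER stress response element was present in 0.208% of all promoters and in 9 of 22 promoters of unfolded protein response genes. Among promoters of genes called higher and lower, as defined below, the STAT motif was present in 9.75% and 5.75%. Genes that were lower in HFD_DSS held these motifs too, such as Hamp2 (STAT) and Acacb (ER stress response element). A match describes letters in this window and is not evidence of binding.

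HFD_DSS livers differed from CD livers in 962 of the 10295 genes at a limma adjusted p under 0.05 (Benjamini-Hochberg), here named called, which is 9.34% of the genes tested. Of these, 395 were higher (3.84%) and 567 were lower (5.51%) in HFD_DSS. Acute phase, metallothionein and chemokine genes were among the 15 largest increases, and lipogenic and cytochrome P450 genes among the 15 largest decreases. Both rankings hold only called genes with a mean of at least 1 FPKM over the 6 libraries and no clone or prediction name. They also required all 3 libraries of one group above the 3 of the other. In these genes the lack of overlap therefore follows from the rule. A log2 fold change of at least 1 in size was reached by 100 genes called higher and 125 called lower. Fold changes are HFD_DSS over CD on the scale of log2(FPKM + 1), so they understate the change of genes with low FPKM, and their median over all genes tested was -0.01. After rescaling each library to the same FPKM sum, 453 genes were called higher and 350 lower, so the share called higher was 56.4% in place of 41.1%. All 3 libraries of one group lay above the 3 of the other in 34.1% of all genes tested and in 961 of the 962 called. The FPKM filter was passed by 90 genes only through HFD_DSS (40 of them called) and by 50 only through CD (28 called).

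**Figure D1:**
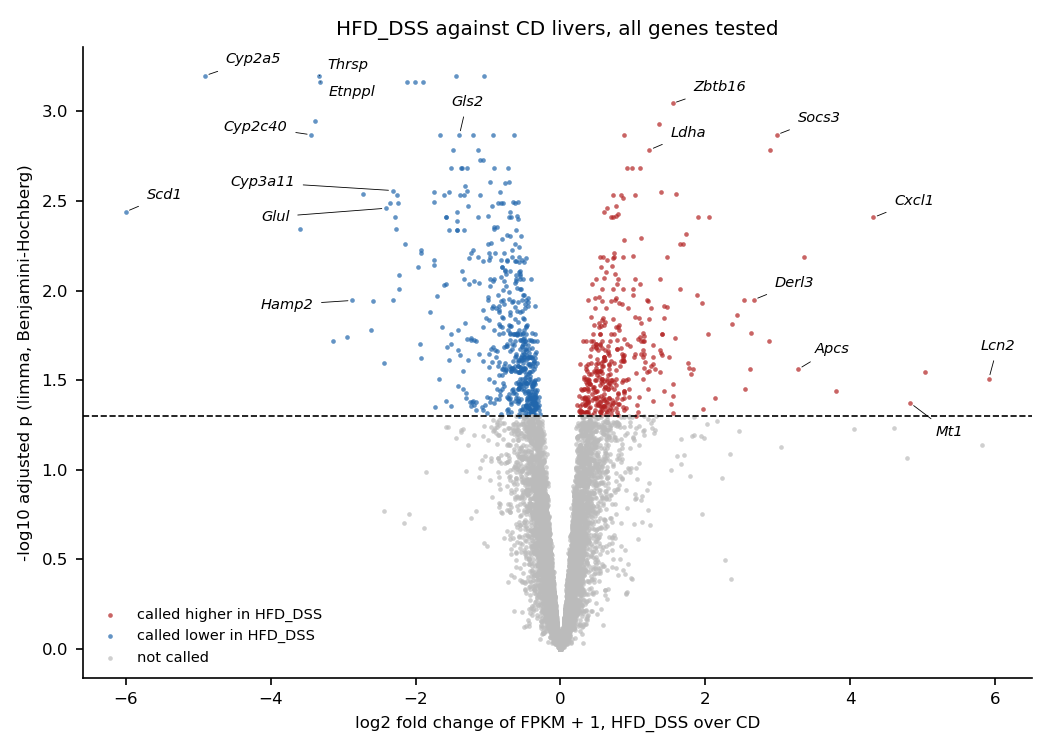
Each point is 1 of the 10295 genes. The x axis gives the log2 fold change of FPKM + 1, HFD_DSS over CD, and the y axis -log10 of the limma adjusted p. Lcn2 lies at 5.91 on the right and Scd1 at -6.0 on the left, while Cyp2a5 and Thrsp lie high on the left with an adjusted p of 0.000633.

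The 12 libraries held 23388389 to 29414612 fragments each. HFD_DSS 2 stood nearer to CD than the other HFD_DSS libraries. On the first principal component of the 6 libraries, which held 64.9% of the variance, HFD_DSS lay at 30.7, 8.08 and 26.0 and CD at -23.4, -20.8 and -20.5. HFD_DSS 2 was the nearest to CD of the 3 HFD_DSS libraries in 289 of the 395 genes called higher and in 373 of the 567 called lower. Without it 1303 genes were called, 837 of the 962 among them. Without any other 1 of the 6 libraries 285 to 442 genes were called (429, 317 and 442 without CD 1, 2 and 3, and 285 and 291 without HFD_DSS 1 and 3). Calls kept whichever 1 of the 6 libraries was left out numbered 223, of which 66 were higher and 157 lower.

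Positive acute phase proteins, the plasma proteins that the inflamed liver secretes, were prominent among the genes called higher in HFD_DSS. Of 32 genes tested, 17 were called higher and 1, Serpina3k, lower (-0.52, adjusted p 0.0495), with a median log2 fold change of 1.64. Lcn2 (chr2:32384633-32388252), whose product lipocalin 2 binds bacterial siderophores, had 366, 38.3 and 423 FPKM in HFD_DSS livers, against 3.72, 2.11 and 0.904 FPKM in CD livers. Its log2 fold change was 5.91 ± 1.46 (SE; limma adjusted p 0.0311). Apcs, the serum amyloid P gene whose promoter is shown above, had 1231, 247 and 837 FPKM in HFD_DSS livers, against 53.8, 83.6 and 58.8 FPKM in CD livers (3.28 ± 0.79, adjusted p 0.0275). In both genes the groups did not overlap and HFD_DSS 2 was several times below the other HFD_DSS libraries. Hp, the haemoglobin-binding haptoglobin, had 11250, 4020 and 11060 FPKM in HFD_DSS livers, against 1636, 1940 and 1890 FPKM in CD livers (2.13 ± 0.56, adjusted p 0.0399). Fga, Fgb and Fgg, the 3 chains of fibrinogen, had log2 fold changes of 1.38, 1.37 and 1.40, each called. Steap4, a metalloreductase (2.88), Serpina3n, a protease inhibitor (2.62), and Hpx, the haem carrier hemopexin (1.97), were also called higher. Lcn2, Apcs, Hp, Fga, Fgb, Fgg, Serpina3n and Hpx lost their calls when any 1 library other than HFD_DSS 2 was left out, with adjusted p up to 0.119, 0.116, 0.146, 0.0896, 0.114, 0.0952, 0.114 and 0.157. The call was lost for Steap4 without CD 1, CD 2, HFD_DSS 1 or HFD_DSS 3 (up to 0.0817) and Serpina3k without each of the 6 libraries in turn (up to 0.161).

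Acute phase transcripts made up a larger part of the summed FPKM in HFD_DSS. The 34 listed genes held 15.5, 9.32 and 17.0% of it in HFD_DSS livers, against 5.50, 5.71 and 5.79% in CD livers. Saa2, a serum amyloid A gene, had 630, 61.5 and 1927 FPKM in HFD_DSS livers, against 4.70, 6.95 and 8.37 FPKM in CD livers, and was not called (log2 fold change 5.82 ± 1.89, limma adjusted p 0.0726). Saa1 (4.78, adjusted p 0.0864) and Orm2, an orosomucoid gene (4.60, adjusted p 0.0587), were not called either. In these 3 genes too the groups did not overlap, and HFD_DSS 2 was the lowest of its group. The number of genes of this list called higher was 25 without HFD_DSS 2 and 0 to 3 without any other 1 of the 6 libraries.

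Several genes of STAT3 and SOCS signalling, the pathway of interleukin-6, were called as well. Among 15 genes of this list, which also holds genes outside the interleukin-6 receptor complex such as Il1r1 and Bcl3, 7 were called higher, 7 were not called and 1, the receptor gene Lifr, was called lower (-0.72, adjusted p 0.0481). The number called higher was 6 without HFD_DSS 2 and 2 to 3 without any other 1 of the 6 libraries. Socs3 (chr11:117966079-117970047), the feedback inhibitor of this pathway, had 14.7, 10.7 and 26.7 FPKM in HFD_DSS livers, against 1.40, 1.22 and 0.939 FPKM in CD livers. The groups were far apart, and its log2 fold change was 2.98 ± 0.33 (limma adjusted p 0.00135). Stat3 itself had 30.5, 29.3 and 25.9 FPKM in HFD_DSS livers, against 17.1, 16.5 and 14.7 FPKM in CD livers (0.79 ± 0.14, adjusted p 0.00864). Il1r1, the interleukin-1 receptor (1.80), Bcl3, a nuclear IkB family protein (1.77), and Pim1, a STAT-induced kinase (1.10), were called higher. So were the interleukin-6 receptor chains Il6ra (0.57, adjusted p 0.0389) and Il6st (0.49, adjusted p 0.0364). Socs3 and Stat3 kept their calls whichever 1 of the 6 libraries was left out. Leaving out any 1 library other than HFD_DSS 2 ended the calls of Il1r1, Bcl3 and Lifr, with adjusted p up to 0.114, 0.105 and 0.157. Significance was lost for Pim1 without CD 2, CD 3 or HFD_DSS 3 (up to 0.0761), Il6ra without CD 1, CD 3, HFD_DSS 1 or HFD_DSS 3 (up to 0.143) and Il6st without each of the 6 libraries in turn (up to 0.117).

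Genes of other inflammatory pathways were also called. Of 11 chemokine genes, 3 were called higher, namely Cxcl1, Cxcl14 (2.53) and Ccl6 (1.04). Cxcl1, a neutrophil attractant, had 53.4, 14.6 and 71.0 FPKM in HFD_DSS livers, against 1.22, 1.46 and 0.408 FPKM in CD livers (log2 fold change 4.32 ± 0.65, limma adjusted p 0.00391), with no overlap. Among 15 NF-kB targets and cytokines only Nfkbiz, a nuclear IkB protein, was called (6.67% of the list, against 9.34% of all genes), with 6.86, 3.46 and 7.48 FPKM in HFD_DSS livers and 0.837, 1.12 and 0.465 FPKM in CD livers (1.90 ± 0.28, adjusted p 0.00391). The cytokine gene Tnf stayed at or below 0.128 FPKM in HFD_DSS livers and 0.149 FPKM in CD livers and did not pass the filter. Of 17 immediate early genes 8 were called higher, among them the transcription factor genes Junb (2.05), Klf10 (1.39) and Fosl2 (0.92), and 3 of these 8 passed the filter only through HFD_DSS, where they are high. Interferon-stimulated genes had 5 of 31 called higher, from Irf1 at 0.90 to Irf9 at 0.54, and 10 after rescaling to the same FPKM sum. Of the 31, 2 passed the filter only through HFD_DSS, 1 of which, Xaf1, is among the 5. Of 14 genes that sense bacterial products, the adaptor Myd88 (0.80) and the scavenger receptors Marco (1.55) and Msr1 (0.38) were called higher. The shares called were 27.3% of chemokine, 47.1% of immediate early, 16.1% of interferon-stimulated and 21.4% of sensing genes, against 9.34% of all genes. The immediate early and interferon-stimulated shares include the genes that passed the filter only through HFD_DSS. Of all genes that did not pass through 1 group alone, 8.80% were called. The lists were chosen with earlier results of these data known, so these shares are a description. Without HFD_DSS 2 the numbers called higher were 4 chemokine, 9 immediate early, 6 interferon-stimulated and 4 sensing genes, and without any other 1 library they were 1 to 2, 4 to 6, 1 to 2 and 0 to 1. Calls kept whichever 1 library was left out were those of Cxcl1, Nfkbiz, Junb, Klf10, Fosl2, the immediate early gene Klf6 (0.38) and the interferon-stimulated gene Gbp3 (0.76). Leaving out any 1 library other than HFD_DSS 2 ended those of Ccl6, Marco and Msr1, with adjusted p up to 0.185, 0.180 and 0.126. The adjusted p was 0.05 or more for Cxcl14 without HFD_DSS 1 (0.0523), Irf1 without CD 1, CD 3, HFD_DSS 1, HFD_DSS 2 or HFD_DSS 3 (up to 0.119), Irf9 without CD 1, CD 2, CD 3 or HFD_DSS 1 (up to 0.0843) and Myd88 without CD 2, HFD_DSS 1 or HFD_DSS 3 (up to 0.0731).

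Metal-binding genes were among the largest increases. Mt1 (chr8:94179082-94180327), a metallothionein that binds zinc and copper, had 714, 138 and 520 FPKM in HFD_DSS livers, against 9.69, 28.7 and 6.11 FPKM in CD livers (log2 fold change 4.83 ± 1.31, limma adjusted p 0.0424). Mt2 had 118, 30.8 and 83.8 FPKM in HFD_DSS livers, against 0.971, 3.09 and 0.130 FPKM in CD livers (5.04 ± 1.22, adjusted p 0.0284). Both were higher in every HFD_DSS library than in every CD library. The predicted gene Gm45774 overlaps 73.5% of the exon length of Mt2, and the rule by which shared reads were assigned is not given. The zinc importer gene Slc39a14 was higher (1.495) and Slc39a4, another zinc importer gene, lower (-0.63). Of the 10 genes of zinc handling tested, 5 were called higher and 1 lower, and 4 were called higher without HFD_DSS 2 and 1 without any other 1 library. When any 1 library other than HFD_DSS 2 was left out, Mt1, Mt2, Slc39a14 and Slc39a4 lost their calls (adjusted p up to 0.150, 0.112, 0.0954 and 0.124).

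Among 20 iron genes 5 were called higher and 3 lower, 40% of the list, against 9.34% of all genes. Of the 5, Lcn2, Hp, Hpx and Cp are also on the acute phase list, so these calls are not a separate result. The number called higher was 5 without HFD_DSS 2 and 0 to 1 without any other 1 library. Hamp2, a hepcidin paralogue, had 0.633, 0.309 and 1.22 FPKM in HFD_DSS livers, against 8.95, 11.6 and 13.9 FPKM in CD livers (log2 fold change -2.88 ± 0.55, limma adjusted p 0.0114) and kept its call whichever 1 library was left out. Hamp, which encodes the iron hormone hepcidin, had 67.5, 24.2 and 496 FPKM in HFD_DSS livers, against 429, 351 and 890 FPKM in CD livers. Its groups overlapped and it was not called (-2.43 ± 1.08, adjusted p 0.169). Cp, the ferroxidase ceruloplasmin, had 334, 178 and 303 FPKM in HFD_DSS livers and 117, 132 and 113 FPKM in CD livers (1.11 ± 0.23, adjusted p 0.0152). Lcn2, Hp and Hpx lost their calls, with adjusted p up to 0.119, 0.146 and 0.157, when any 1 library other than HFD_DSS 2 was left out. A call was also lost for Cp without CD 3, HFD_DSS 1 or HFD_DSS 3 (up to 0.0694).

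**Figure D2:**
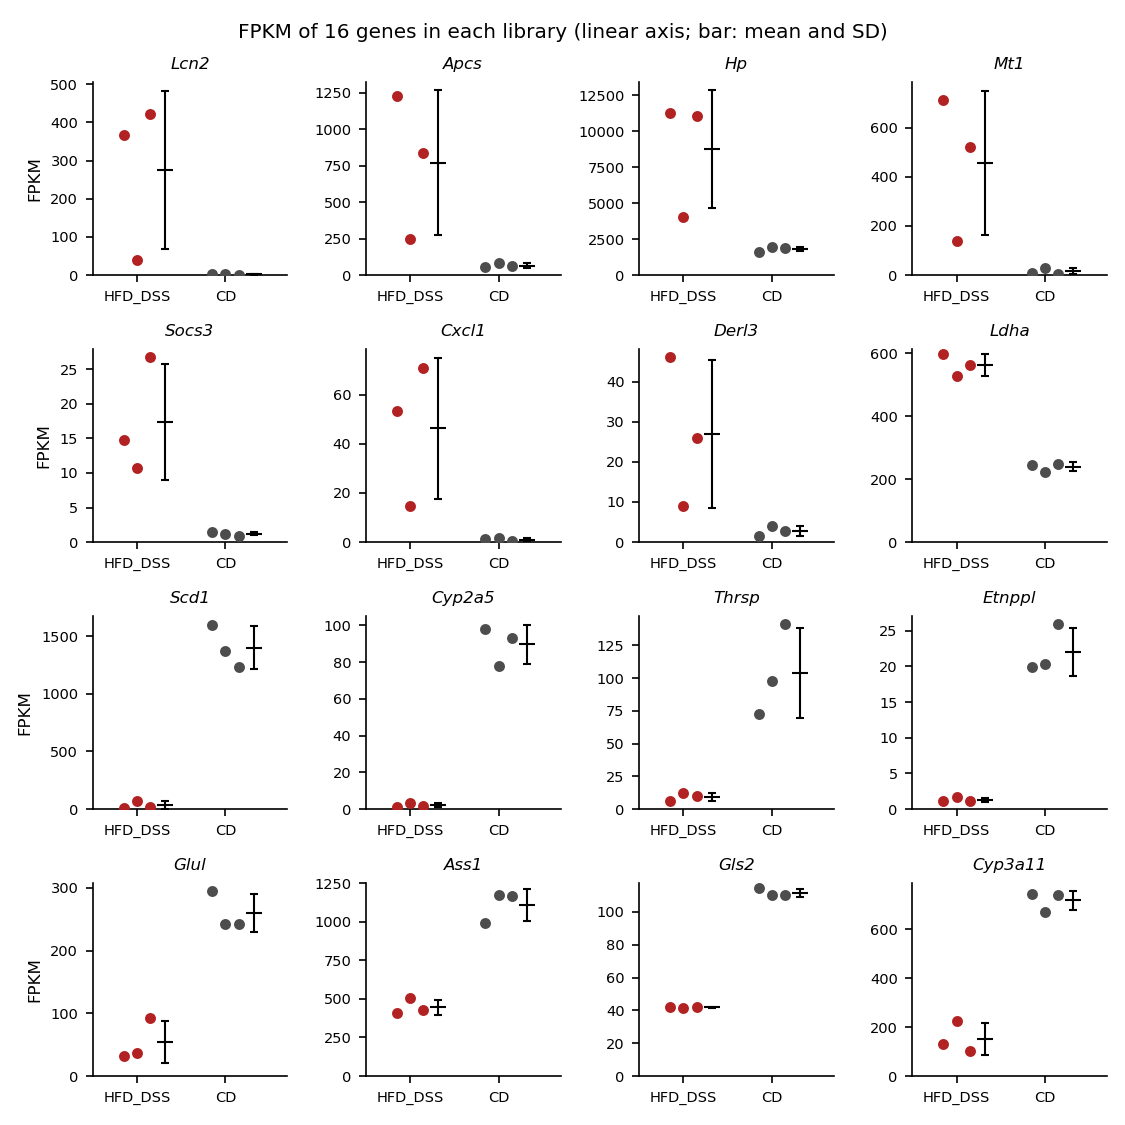
FPKM of 16 genes on linear axes that start at 0, HFD_DSS at the left and CD at the right of each panel. Points are replicates 1, 2 and 3 from left to right, and the bar gives the mean and SD of 3 libraries. Lcn2, Apcs, Hp, Mt1, Cxcl1 and Derl3 have their lowest HFD_DSS point in replicate 2, whereas Gls2 lies between 41.3 and 42.3 FPKM in HFD_DSS.

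Complement and coagulation factors are made by the same hepatocytes. Of 37 genes tested, 7 were called higher and 1, C8g, lower (-0.52, adjusted p 0.0220). The number called higher was 8 without HFD_DSS 2 and 0 to 1 without any other 1 of the 6 libraries. C4b, complement component C4, had 540, 468 and 577 FPKM in HFD_DSS livers and 268, 310 and 280 FPKM in CD livers (log2 fold change 0.88 ± 0.23, limma adjusted p 0.0365), and C8a, a chain of the membrane attack complex, had 448, 436 and 484 FPKM in HFD_DSS livers and 287, 316 and 308 FPKM in CD livers (0.59 ± 0.14, adjusted p 0.0248). C4b and C8a were not called when any 1 library other than HFD_DSS 2 was left out, with adjusted p up to 0.123 and 0.0981. The call was lost for C8g without CD 2, CD 3, HFD_DSS 1 or HFD_DSS 3 (up to 0.0908).

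Genes of ER protein folding had higher values in HFD_DSS. The 26 genes of the unfolded protein response had a median log2 fold change of 0.66, and 5 were called higher and none lower. Derl3 (chr10:75893413-75895941) had 46.1, 9.06 and 25.9 FPKM in HFD_DSS livers, against 1.58, 4.09 and 2.76 FPKM in CD livers (log2 fold change 2.67 ± 0.51, limma adjusted p 0.0113). Dnajc3 had 158, 93.2 and 135 FPKM in HFD_DSS livers, against 70.4, 85.8 and 78.6 FPKM in CD livers (0.68 ± 0.17, adjusted p 0.0292). HFD_DSS 2 stood close above CD in Dnajc3 and below the other HFD_DSS libraries in both genes. The disulfide isomerase gene Pdia4 (1.08) and the chaperone genes Hsp90b1 (1.06) and Hspa13 (0.58) were the others called. Hspa5, the central ER chaperone, had 1081, 448 and 797 FPKM in HFD_DSS livers, against 189, 419 and 437 FPKM in CD livers, and was not called (1.16 ± 0.35, adjusted p 0.0598). The number called higher in this list was 17 without HFD_DSS 2, 1 to 2 without any other 1 of the 6 libraries, and 12 after rescaling to the same FPKM sum. Derl3 kept the call whichever 1 of the 6 libraries was left out. Dnajc3, Pdia4 and Hsp90b1 lost theirs when any 1 library other than HFD_DSS 2 was left out, with adjusted p up to 0.114, 0.168 and 0.158. The call was lost for Hspa13 without CD 1, HFD_DSS 1 or HFD_DSS 3 (up to 0.107).

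The integrated stress response, whose targets are driven by the factor ATF4, had 6 of 16 genes called higher and 1, Shmt2, lower (-0.32, adjusted p 0.0440). Of the 16, 2 passed the filter only through HFD_DSS, 1 of which, Mthfd2, is among the 6. The number called higher was 7 without HFD_DSS 2 and 1 to 4 without any other 1 library. Atf5, a stress-induced transcription factor, had 312, 284 and 272 FPKM in HFD_DSS livers, against 192, 177 and 163 FPKM in CD livers (log2 fold change 0.70 ± 0.11, limma adjusted p 0.00391). Chac1, a glutathione-degrading enzyme (1.47), Ddit3, the stress factor CHOP (1.17), and Asns, asparagine synthetase (1.14), were also called higher. In each of these 4 genes the groups did not overlap. Atf5 kept its call whichever 1 library was left out. Asns lost its call when any 1 library other than HFD_DSS 2 was left out, with adjusted p up to 0.124. Significance was lost for Chac1 without CD 2 (0.0534), Ddit3 without CD 1, CD 2, HFD_DSS 1 or HFD_DSS 3 (up to 0.0881) and Shmt2 without each of the 6 libraries in turn (up to 0.159).

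Few genes of protein turnover were called. Of 41 genes of the autophagy machinery and its cargo receptors, a process named in the title of the study, none was called higher and 1, Atg7, was called lower. This share, 2.44%, was below the 9.34% of all genes. The median log2 fold change of the list was 0.01. Atg7, which activates LC3-type proteins, had 6.17, 6.00 and 6.28 FPKM in HFD_DSS livers, against 7.53, 7.99 and 7.94 FPKM in CD livers (-0.30 ± 0.08, adjusted p 0.0448 by limma), and it was not called whichever 1 of the 6 libraries was left out (adjusted p 0.0802 to 0.131). The cargo receptor gene Sqstm1 had 161, 142 and 145 FPKM in HFD_DSS livers, against 135, 138 and 118 FPKM in CD livers (0.20 ± 0.09, adjusted p 0.195). Map1lc3b, which encodes LC3B, had 20.5, 17.5 and 21.1 FPKM in HFD_DSS livers and 14.8, 16.3 and 15.7 FPKM in CD livers (0.31 ± 0.10, adjusted p 0.0755). In both genes the groups did not overlap, by a small margin in Sqstm1, and neither was called. Map1lc3b was called without HFD_DSS 2 (adjusted p 0.0403) and not without any other 1 library (up to 0.231). The list had 0 to 1 genes called higher and 0 to 2 called lower with 1 of the 6 libraries left out. The initiating kinase gene Ulk1 (0.21, adjusted p 0.413), Becn1, a subunit of the lipid kinase that starts autophagosomes (0.13, adjusted p 0.238), and the lysosomal regulator gene Tfeb (0.07, adjusted p 0.673) were not called. By the same test none of 31 lysosomal genes, 31 proteasome subunits and 39 cytosolic ribosomal proteins was called. RNA levels carry no measure of autophagic flux.

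Genes of fatty acid and triglyceride synthesis were among the largest decreases in HFD_DSS. Of 21 genes tested, 11 were called lower and none higher, and the median log2 fold change was -0.93. Scd1 (chr19:44394455-44407879), the stearoyl-CoA desaturase, had 8.37, 71.2 and 14.3 FPKM in HFD_DSS livers, against 1599, 1369 and 1235 FPKM in CD livers (log2 fold change -6.0 ± 0.88, limma adjusted p 0.00364). Thrsp, a lipogenic regulator, had 6.13, 12.4 and 9.77 FPKM in HFD_DSS livers, against 72.7, 97.9 and 141 FPKM in CD livers (-3.33 ± 0.30, adjusted p 0.000633). Acly, which makes cytosolic acetyl-CoA from citrate, had 28.6, 35.9 and 24.3 FPKM in HFD_DSS livers and 89.6, 81.1 and 80.3 FPKM in CD livers (-1.48 ± 0.18, adjusted p 0.00164). All 3 genes had no overlap between groups. Acacb, acetyl-CoA carboxylase 2 (-2.28), Acss2, an acetyl-CoA synthetase (-1.93), Me1, malic enzyme (-1.68), and Fasn, fatty acid synthase (-1.63), were also lower. Srebf1, the transcription factor of this pathway, had 15.9, 28.4 and 11.4 FPKM in HFD_DSS livers, against 36.1, 33.6 and 32.2 FPKM in CD livers and was not called (-0.93 ± 0.28, adjusted p 0.0610). Scd1, Thrsp, Acly, Acacb and Acss2 kept their calls whichever 1 library was left out. Me1 was not called when any 1 library other than HFD_DSS 2 was left out (adjusted p up to 0.127). The adjusted p was 0.05 or more for Fasn without CD 3, HFD_DSS 1 or HFD_DSS 3 (up to 0.0706). The number of genes of this list called lower was 16 without HFD_DSS 2 and 5 to 6 without any other 1 library.

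Few genes of lipid storage and fatty acid oxidation were called. None of 19 genes of lipid droplets and fatty acid uptake was called by limma, and Plin2, a droplet coat protein, had 106, 178 and 108 FPKM in HFD_DSS livers, against 131, 111 and 128 FPKM in CD livers. The groups overlapped in Plin2 (0.05, adjusted p 0.922). Of 28 genes of fatty acid oxidation and ketogenesis, 2 were called higher (7.14%, against 9.34% of all genes called in either direction). Cpt1a, which admits fatty acids to mitochondria, had 98.0, 147 and 109 FPKM in HFD_DSS livers, against 82.1, 74.7 and 71.0 FPKM in CD livers (0.61 ± 0.14, adjusted p 0.0245), and the mitochondrial carrier gene Ucp2 was the other (0.86, adjusted p 0.0238). Nuclear genes of oxidative phosphorylation had 13 of 33 called lower and none higher, with a median of -0.36. Atp5c1, a subunit of ATP synthase, had 78.1, 83.5 and 76.3 FPKM in HFD_DSS livers, against 110, 116 and 124 FPKM in CD livers (-0.55 ± 0.10, adjusted p 0.00864). Its groups did not overlap. After rescaling to the same FPKM sum 5 of the 33 were called lower, and without 1 library 2 to 11. Atp5c1 kept its call whichever 1 of the 6 libraries was left out. Ucp2 lost its call when any 1 library other than HFD_DSS 2 was left out, with adjusted p up to 0.0918. A call was also lost for Cpt1a without CD 2, CD 3 or HFD_DSS 3 (up to 0.0801).

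Urea cycle enzymes and enzymes of amino acid breakdown were often called lower. Of 28 genes tested, 18 were called lower and none higher, with a median log2 fold change of -0.65. Ass1, argininosuccinate synthase of the urea cycle, had 411, 503 and 425 FPKM in HFD_DSS livers, against 990, 1170 and 1169 FPKM in CD livers (log2 fold change -1.31 ± 0.17, limma adjusted p 0.00261). Gls2, the liver glutaminase, had 42.3, 41.3 and 41.8 FPKM in HFD_DSS livers, against 114, 110 and 110 FPKM in CD livers (-1.39 ± 0.16, adjusted p 0.00135). Within each group the 3 values of Gls2 were close together. Glul (chr1:153899944-153909723), the glutamine synthetase of hepatocytes around the central vein, had 32.2, 36.9 and 92.0 FPKM in HFD_DSS livers, against 295, 243 and 242 FPKM in CD livers (-2.41 ± 0.35, adjusted p 0.00348). Etnppl, which breaks down phosphoethanolamine and is not on the list, had 1.13, 1.64 and 1.16 FPKM in HFD_DSS livers and 19.9, 20.3 and 25.9 FPKM in CD livers (-3.32 ± 0.33, adjusted p 0.000686). None of these 4 genes had overlapping groups. Cps1, the first enzyme of the urea cycle, had a smaller difference (-0.69, adjusted p 0.0432), with an adjusted p of 0.0782 to 0.127 whichever 1 library was left out. Ass1, Gls2, Glul and Etnppl kept their calls whichever 1 of the 6 libraries was left out. The number called lower in the list was 16 without HFD_DSS 2 and 9 to 11 without any other 1 library.

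Of 23 genes of gluconeogenesis, glycolysis and glycogen, 8 were called lower and 1 higher, and 4 to 7 were called lower with 1 of the 6 libraries left out. Ldha (chr7:46841475-46855627), lactate dehydrogenase A, had 596, 529 and 563 FPKM in HFD_DSS livers, against 245, 224 and 249 FPKM in CD livers (log2 fold change 1.23 ± 0.15, limma adjusted p 0.00164). G6pc, the glucose-6-phosphatase that releases free glucose, had 42.9, 79.6 and 61.5 FPKM in HFD_DSS livers, against 355, 334 and 403 FPKM in CD livers (-2.59 ± 0.50, adjusted p 0.0115). Neither gene had overlapping groups. Pck1, phosphoenolpyruvate carboxykinase, had 687, 871 and 664 FPKM in HFD_DSS livers, against 808, 1099 and 990 FPKM in CD livers, and was not called (-0.38 ± 0.30, adjusted p 0.444). Pygl, liver glycogen phosphorylase (-1.07), and Pklr, liver pyruvate kinase (-1.36), were lower. The calls of Ldha, Pygl and Pklr held whichever 1 library was left out. Calls were lost for G6pc without HFD_DSS 1 (0.0534).

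Genes called lower came from several families of drug-metabolising enzymes. Of 27 cytochrome P450 genes of families 1 to 3, of which 2 passed the filter only through CD, 17 were called lower and 1, Cyp3a13, higher (0.88, adjusted p 0.0372), with a median log2 fold change of -1.0. Cyp2c69 (-2.73) passed only through CD, where it is high, and is among the 17. Its call is therefore a description. Cyp2a5 (chr7:26835305-26843548), which oxidises coumarin and nicotine, had 1.25, 3.38 and 1.78 FPKM in HFD_DSS livers, against 98.2, 77.8 and 93.3 FPKM in CD livers (-4.91 ± 0.43, adjusted p 0.000633). Cyp3a11, a main drug-oxidising enzyme of mouse liver, had 129, 224 and 101 FPKM in HFD_DSS livers, against 742, 671 and 737 FPKM in CD livers (-2.32 ± 0.31, adjusted p 0.00277). Both had no overlap between groups. Cyp2e1, the ethanol-oxidising form, had 1911, 2012 and 2787 FPKM in HFD_DSS livers, against 2293, 2364 and 2219 FPKM in CD livers, with overlapping groups (-0.06 ± 0.19, adjusted p 0.884). The fold change of Cyp2e1 changed sign when HFD_DSS 1 or HFD_DSS 2 was left out. Together the listed P450 genes held 1.16, 1.49 and 1.43% of the summed FPKM in HFD_DSS livers, against 2.20, 2.02 and 1.95% in CD livers. Conjugating enzymes had 11 of 30 called lower and none higher, led by Gstm2, a glutathione transferase (-2.27), and Ugt1a9, a glucuronosyltransferase (-2.12). Other gene models overlap 59.9% of the exon length of Ugt1a9. Carboxylesterases, which split ester bonds in drugs and lipids, had 7 of 13 called lower, led by Ces2c (-3.60). Of 19 targets of the antioxidant factor NRF2, 6 were called lower and none higher, and 4 of the 6 were glutathione transferases. The shares called were 66.7% of P450 genes, 36.7% of conjugating enzymes, 53.85% of carboxylesterases and 31.6% of NRF2 targets, against 9.34% of all genes. With 1 of the 6 libraries left out, 11 to 17 P450 genes, 5 to 15 conjugating enzymes, 4 to 8 carboxylesterases and 3 to 7 NRF2 targets were called lower, each highest without HFD_DSS 2. Many members of these families are close paralogues, and reads shared between them may have been split in the authors' counting. Cyp2a5, Cyp3a11, Gstm2, Ugt1a9 and Ces2c kept their calls whichever 1 library was left out. Cyp3a13 lost its call when any 1 library other than HFD_DSS 2 was left out, with adjusted p up to 0.137.

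Some markers of both ends of the liver lobule were called lower. Of 22 pericentral genes 9 were called lower, 1 of which passed the filter only through CD, and of 21 periportal genes 11, with no gene called higher in either list and medians of -0.79 and -0.43. With 1 of the 6 libraries left out, 5 to 10 pericentral and 5 to 9 periportal genes were called lower. The pericentral list holds Glul, Cyp2a5 and Cyp1a2 (-2.31). Cyp2f2, a periportal enzyme, had 235, 229 and 284 FPKM in HFD_DSS livers, against 467, 601 and 591 FPKM in CD livers (log2 fold change -1.14 ± 0.14, limma adjusted p 0.00164). Aldh1b1, a mitochondrial aldehyde dehydrogenase, had 15.1, 14.5 and 15.6 FPKM in HFD_DSS livers and 26.4, 31.6 and 30.5 FPKM in CD livers (-0.92 ± 0.11, adjusted p 0.00135). Neither gene had overlapping groups. Hepatocyte RNA was abundant in all 6 libraries. The 13 hepatocyte markers summed to 49240, 34450 and 27220 FPKM in HFD_DSS livers, against 47640, 43660 and 44500 FPKM in CD livers. Of these 13, 4 were called lower and 1 higher (38.5%, against 9.34% of all genes). With 1 of the 6 libraries left out, 1 to 2 were called lower and 0 to 1 higher. Alb, which encodes albumin, had 34340, 22390 and 16130 FPKM in HFD_DSS livers and 33020, 29220 and 28900 FPKM in CD livers. Alb was not called (-0.39 ± 0.25, adjusted p 0.344), and Ttr, transthyretin, was called lower (-0.77). The calls of Cyp1a2, Cyp2f2, Aldh1b1, Glul and Cyp2a5 held whichever 1 library was left out. Ttr lost its call when any 1 library other than HFD_DSS 2 was left out, with adjusted p up to 0.114.

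Some bile acid genes were called lower, without a call for the rate-limiting enzyme. Of 14 synthesis genes 4 were called lower (28.6%), and of 14 transport genes 3 (21.4%), with none higher, against 5.51% of all genes called lower. All 14 synthesis genes and 13 of the 14 transport genes had a negative log2 fold change. With 1 of the 6 libraries left out, 2 to 4 synthesis and 0 to 4 transport genes were called lower. Cyp8b1, the sterol hydroxylase that makes cholic acid, had 187, 141 and 160 FPKM in HFD_DSS livers, against 324, 245 and 312 FPKM in CD livers (log2 fold change -0.85 ± 0.17, limma adjusted p 0.0128). Akr1d1, a steroid reductase of the pathway, had 26.1, 25.8 and 24.4 FPKM in HFD_DSS livers and 81.6, 71.6 and 58.6 FPKM in CD livers (-1.42 ± 0.22, adjusted p 0.00458). Both genes had separate groups. Cyp7a1, the rate-limiting enzyme, had 14.1, 1.44 and 15.3 FPKM in HFD_DSS livers, against 35.3, 15.6 and 46.6 FPKM in CD livers, and was not called (-1.86 ± 0.68, adjusted p 0.103). Its groups did not overlap, by a small margin. The export pump gene Abcb11 (-0.84) and the uptake carrier gene Slc10a1 (-0.50) were lower. Akr1d1 kept its call whichever 1 library was left out. Abcb11 lost its call when any 1 library other than HFD_DSS 2 was left out, with adjusted p up to 0.124. The call was lost for Cyp8b1 without HFD_DSS 3 (0.0515) and Slc10a1 without CD 1, CD 2, CD 3 or HFD_DSS 1 (up to 0.0955).

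**Figure D3:**
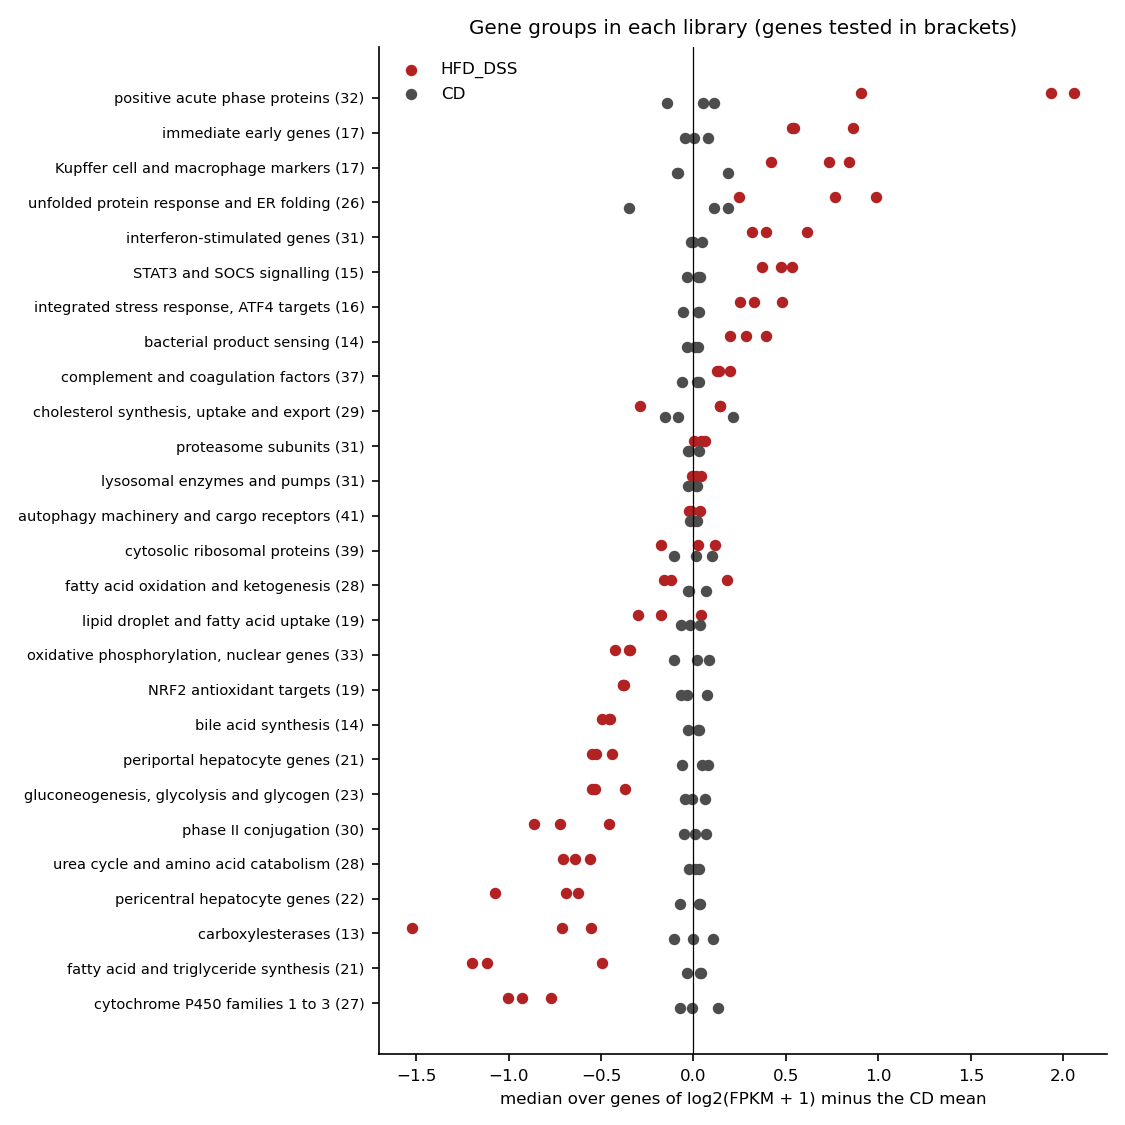
For 27 gene lists, each point gives the median over the tested genes of log2(FPKM + 1) minus the CD mean in 1 library, with HFD_DSS above CD in each row and the number of genes tested in brackets. Positive acute phase proteins lie at 1.93, 0.90 and 2.06 in HFD_DSS, cytochrome P450 families 1 to 3 at -0.93, -0.77 and -1.0, and autophagy machinery at -0.03, 0.03 and -0.01.

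Markers of other cell types were measured beside these groups. In bulk liver, fewer cells of a type and less RNA per cell cannot be told apart. Of 17 macrophage markers tested, 3 were called higher, namely Marco (1.55), the haemoglobin scavenger receptor gene Cd163 (1.03) and the perforin-like Mpeg1 (0.78), with a median log2 fold change of 0.64. The 22 listed macrophage markers summed to 689, 491 and 718 FPKM in HFD_DSS livers, against 447, 364 and 372 FPKM in CD livers. Adgre1, which encodes the macrophage antigen F4/80, was not called (0.54, limma adjusted p 0.168). The 15 listed neutrophil markers summed to 64.1, 7.17 and 54.9 FPKM in HFD_DSS livers, against 5.12, 5.16 and 3.11 FPKM in CD livers. Only 4 of them passed the filter, 2 of these through one group alone, and none was called, among them S100a8, a calcium-binding protein of myeloid cells, with 15.2, 1.30 and 14.4 FPKM in HFD_DSS livers and 0.646, 0.655 and 0.606 FPKM in CD livers (2.34, adjusted p 0.0817). The granulocyte genes Ly6g and Mpo stayed at or below 0.147 and 0.110 FPKM in HFD_DSS livers, with Ly6g at 0 in all CD livers and Mpo at or below 0.0476 FPKM there. HFD_DSS 2 was the lowest HFD_DSS library in both sums, as in the acute phase list, and the part of these cells in the inflammatory results was not tested. None of 18 stellate cell and matrix genes was called, and 3 of 17 sinusoidal endothelial genes were called lower (0 to 6 with 1 of the 6 libraries left out). The share called was 17.65% in the macrophage list and also in the endothelial list, against 9.34% of all genes. Of 5 cholangiocyte markers tested only Sox9, a transcription factor, was called (20%). It had 4.44, 3.62 and 4.14 FPKM in HFD_DSS livers and 1.94, 1.78 and 1.55 FPKM in CD livers (0.88 ± 0.10, adjusted p 0.00135). Cd163 and Sox9 kept their calls whichever 1 library was left out. Marco and Mpeg1 lost their calls when any 1 library other than HFD_DSS 2 was left out, with adjusted p up to 0.180 and 0.134. Without HFD_DSS 2, 8 macrophage and 3 neutrophil markers were called higher, and without any other 1 library 1 and 0.

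The values of each exposure alone were set beside the combined one. All 3 comparisons use the same CD libraries, and the genes described were called in the first of them. Genes called higher in HFD_DSS had median log2 fold changes of 0.67 in HFD_DSS, 0.14 in HFD and 0.52 in CD_DSS, each over CD. Genes called lower had medians of -0.62 in HFD_DSS, -0.16 in HFD and -0.41 in CD_DSS. HFD 1 and CD_DSS 1 stood apart from their groups, with first principal components over the 12 libraries of -2.74, -21.1 and -18.7 in HFD and -4.90, 21.3 and 21.3 in CD_DSS. Without these libraries, a setting chosen after seeing the data, the medians of the genes called higher were 0.06 in HFD and 0.60 in CD_DSS, and those of the genes called lower were -0.10 in HFD and -0.48 in CD_DSS. The departure of HFD_DSS from the sum of the single effects, on the log2 scale, was called by limma in 1 gene of 10295 (0.00971%), BC049987, and 513 genes had an unadjusted p under 0.05 (4.98%). The number of departures called was 0 to 3 with 1 HFD_DSS or CD library, HFD 1 or CD_DSS 1 left out. The other HFD and CD_DSS libraries were not left out in turn. BC049987 was not among the 962 genes called in HFD_DSS against CD.

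Scd1 had 8.37, 71.2 and 14.3 FPKM in HFD_DSS, 108, 548 and 686 FPKM in HFD, 1307, 294 and 208 FPKM in CD_DSS and 1599, 1369 and 1235 FPKM in CD. Its log2 fold changes over CD were -6.0 in HFD_DSS, -2.01 in HFD and -1.69 in CD_DSS, and the departure from additivity was -2.30 (limma adjusted p 0.9999). HFD_DSS lay below every library of the other 3 groups in this lipogenic gene. Cyp2a5 had 1.25, 3.38 and 1.78 FPKM in HFD_DSS, 40.1, 53.0 and 38.2 FPKM in HFD, 55.9, 13.1 and 15.4 FPKM in CD_DSS and 98.2, 77.8 and 93.3 FPKM in CD. This P450 gene was lower in HFD_DSS than in HFD (adjusted p 0.00235) and than in CD_DSS (adjusted p 0.0275), with a departure of -1.94 (adjusted p 0.869). Cyp3a11 was lower in HFD_DSS than in HFD (adjusted p 0.0217) and than in CD_DSS (adjusted p 0.0340), and its departure was not called. Its log2 fold changes over CD were -2.32 in HFD_DSS, -0.70 in HFD and -0.29 in CD_DSS. Scd1 in HFD_DSS was lower than in HFD (adjusted p 0.0312), and against CD_DSS it did not pass (adjusted p 0.0858). Scd1 and Cyp2a5 were also picked for the size of their departures, as was Lcn2 with a positive one (1.75, limma adjusted p 0.9999). The size of these departures is therefore a description. HFD_DSS was set against HFD and against CD_DSS after values were seen. The share of all genes called in those comparisons is not given here, so their results describe the named genes only.

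Other genes had values near those of one exposure alone. Ugt1a9 had 4.78, 6.82 and 4.34 FPKM in HFD_DSS, 6.71, 5.56 and 6.73 FPKM in HFD, 33.5, 17.2 and 20.3 FPKM in CD_DSS and 27.7, 24.8 and 25.7 FPKM in CD. Its HFD_DSS and HFD libraries overlapped, and HFD_DSS was lower than CD_DSS (limma adjusted p 0.00706). Zbtb16 (chr9:48654297-48836222), a transcription factor induced by glucocorticoids, had 11.7, 9.16 and 11.9 FPKM in HFD_DSS, 1.32, 1.601 and 1.91 FPKM in HFD, 12.1, 11.6 and 9.41 FPKM in CD_DSS and 2.49, 4.13 and 2.71 FPKM in CD. Its log2 fold change in HFD_DSS over CD was 1.55 ± 0.16 (adjusted p 0.000904), and HFD_DSS was higher than HFD (adjusted p 0.000219). HFD_DSS against CD_DSS had an adjusted p of 0.976, which does not show that these groups are alike. Glul, the glutamine synthetase, had log2 fold changes over CD of -2.41 in HFD_DSS, 0.00 in HFD and -3.27 in CD_DSS.

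**Figure D4:**
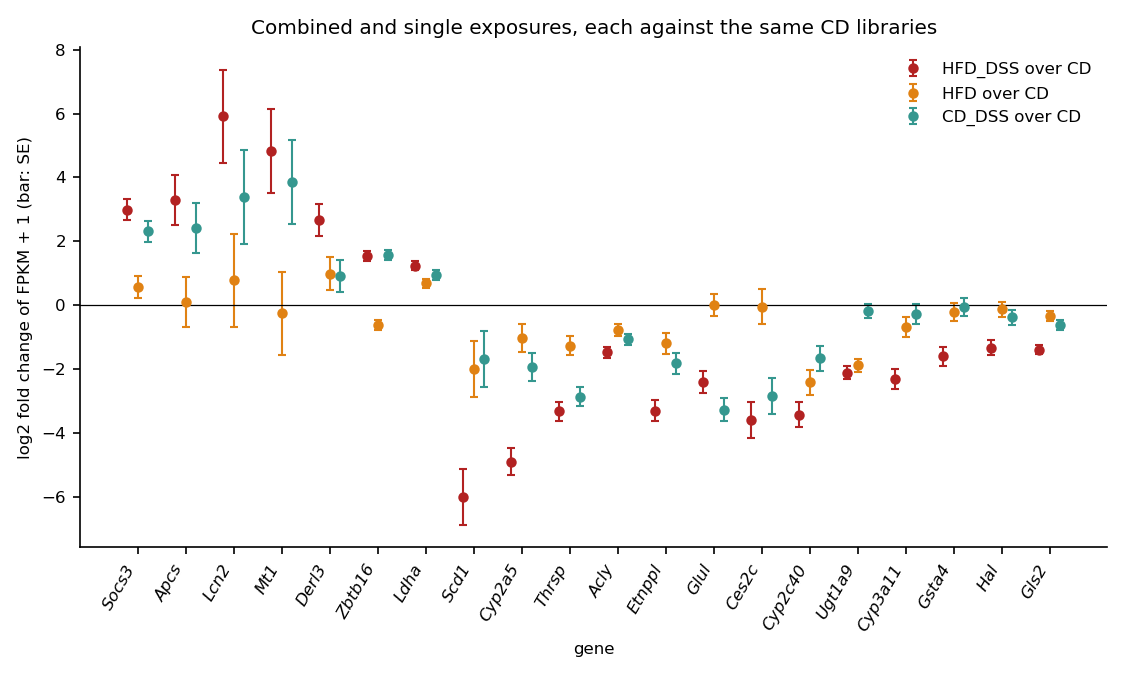
Log2 fold changes of FPKM + 1 over CD for 20 genes in HFD_DSS, HFD and CD_DSS, with SE bars from the limma fit. Scd1 and Cyp2a5 lie lower in HFD_DSS (-6.0 and -4.91) than in either single exposure, and Glul lies at 0.00 in HFD.

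The 29 genes of cholesterol synthesis, uptake and export had median log2 fold changes over CD of 0.10 in HFD_DSS, -0.42 in HFD and -0.46 in CD_DSS, and their median departure from additivity was 0.70. Sqle, squalene epoxidase, had 38.9, 29.5 and 27.8 FPKM in HFD_DSS, 14.5, 8.79 and 17.0 FPKM in HFD, 17.2, 22.3 and 26.0 FPKM in CD_DSS and 27.0, 20.6 and 24.2 FPKM in CD. The HFD_DSS livers lay above all 6 livers of the single exposures in Sqle, which was chosen after its values were seen. The list medians overlapped, at 0.14, 0.14 and -0.29 in HFD_DSS. They were -0.48, -0.59 and -0.17 in HFD and -0.28, -0.71 and -0.37 in CD_DSS. None of the 29 departures was called by limma, with an adjusted p of 0.636 for Sqle. In HFD_DSS against CD 2 of the 29 were called lower (6.90%, against 9.34% of all genes in either direction), the sterol reductase gene Tm7sf2 (-1.12, adjusted p 0.00907) and the feedback regulator gene Insig1 (-0.56, adjusted p 0.0467). Tm7sf2 kept its call whichever 1 library was left out. Insig1 lost its call when any 1 library other than HFD_DSS 2 was left out, with adjusted p up to 0.172.

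**Figure D5:**
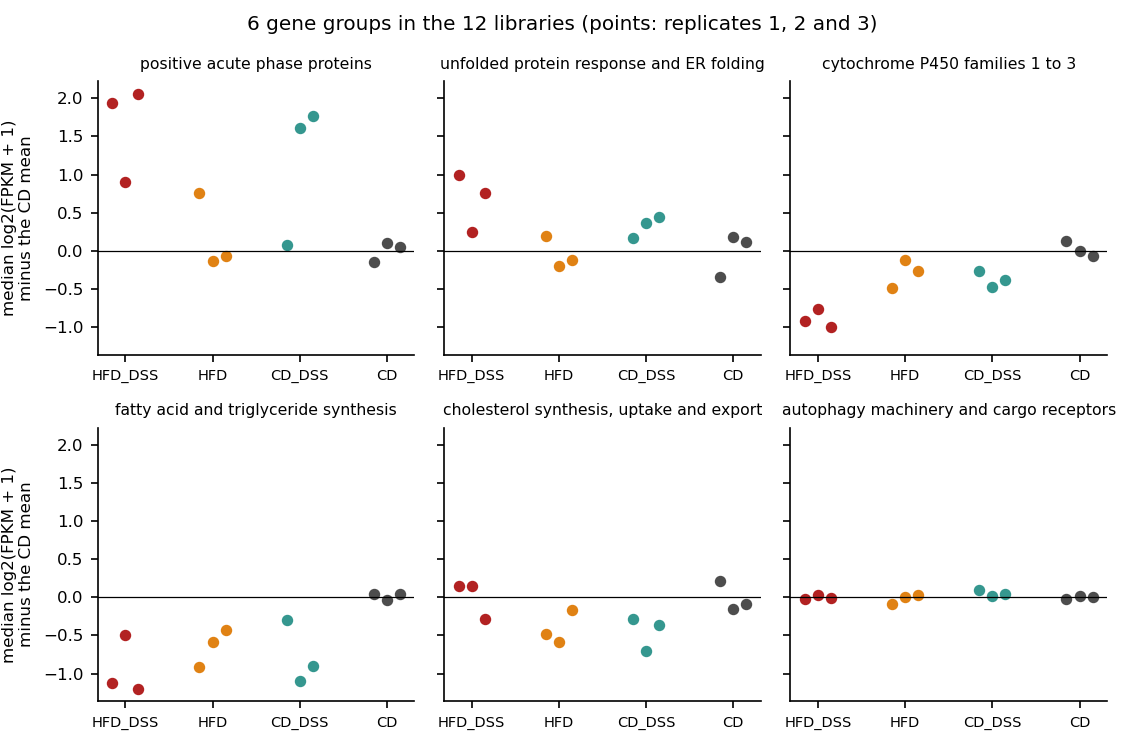
Medians of 6 gene lists, as log2(FPKM + 1) minus the CD mean, in the 12 libraries, with replicates 1, 2 and 3 from left to right within each group. The acute phase list lies at 0.76 in HFD 1 and 0.08 in CD_DSS 1, apart from the other libraries of those groups, and the cholesterol list lies at 0.14, 0.14 and -0.29 in HFD_DSS.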

How the data were processed

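Total liver RNA of 12 libraries in 4 groups of 3 was measured, and the authors deposited 1 table of FPKM per gene. Per the submitters' processing notes they worked with build mm10. No aligner, counter or strand setting was given in the sources used here. Gene names, exon lengths and overlaps came from GENCODE for the same build and matched 99.9% of 54532 gene IDs. Multiplying the deposited FPKM by exon length gave whole fragments within 0.02 for 97.0 to 97.3% of values under 500 fragments, and 23388389 to 29414612 fragments per library. The table's 4 empty columns were not used.

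Genes that reached 1 FPKM in 3 or more of the 6 HFD_DSS and CD libraries entered limma 3.58.1 (R 4.3.3) as log2(FPKM + 1), with 4 group means over 12 libraries, a variance trend, two-sided tests and Benjamini-Hochberg adjustment over 10295 genes. The same fit gave the departure from additivity and, added after values were seen, HFD_DSS against each single exposure. The fit was tested on simulated data. Named genes are the 15 highest and 15 lowest called, up to 5 called per list, fixed genes, and departures. The 15 and 15 had to have groups without overlap and a mean of at least 1 FPKM over the 6 libraries. Clone and prediction names were left out. The departures are up to 5 called and, among genes called in HFD_DSS against CD, up to 5 of the largest size. The members Serpina3k, Lifr, Il6ra, Il6st, Shmt2, C8g, Cyp3a13, Sqle, Ly6g, Mpo, Elane and Klf6 lie outside this rule. They were chosen after their values were seen. Comparison, lists and fixed genes were chosen with earlier results of these data known. Some genes that the rule names are not reported here. Alternatives are given in the closing section.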

Additional observations from a re-analysis of the deposited data

Results flagged for a closer look

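BC049987 (chr9:44670453-44672238), annotated as a long intergenic noncoding RNA, was the gene called for a difference between the DSS effect on the high-fat diet and that on CD, by the test of the difference itself. It had 8.85, 8.44 and 6.48 FPKM in HFD_DSS, 7.51, 7.92 and 6.21 FPKM in HFD, 1.59, 2.23 and 1.64 FPKM in CD_DSS and 6.65, 8.13 and 6.94 FPKM in CD. The CD_DSS libraries were low and the other groups overlapped. The departure from additivity was 1.665 on the log2 scale (limma adjusted p 0.0216), and HFD_DSS against CD was not called (0.11, adjusted p 0.646). The departure was not called without CD 1, CD 2, HFD_DSS 1, HFD_DSS 2 or CD_DSS 1, nor with no filter on low values.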

How the results depend on the processing

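The count of 962 called genes was 470 with no filter on low values, 3402 with library weights, 2182 without HFD_DSS 2, HFD 1 and CD_DSS 1 together, and 225 with a minimum log2 fold change of 1 in size. Leaving out 1 HFD_DSS or CD library gave 285 to 1303. Within 1.5 times 962 were a pseudocount of 0.1 (955), rescaling to the same FPKM sum (803), the 6 libraries alone (1062), and, chosen after seeing the data, voom on recovered fragments (935), the fits without HFD 1 (1157) and without CD_DSS 1 (1358). The departure from additivity, called in 1 gene, was called in 0 to 2 genes without 1 HFD_DSS or CD library, in 0 with no filter, in 2 without the 3 libraries named above, in 3 without HFD 1 and in 0 without CD_DSS 1. Deviations of same-numbered HFD_DSS and CD libraries had correlations of 0.0532, 0.0036 and 0.135, and those of differently numbered ones -0.161 to 0.0721. Deviations cancel within a group of 3 libraries, so these values do not settle whether the numbers pair libraries. A replicate block gave 668 calls, and 933 in the fit of the 6 libraries.

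Signs turned in values that were not called. Without HFD_DSS 2, and also without the 3 libraries named above, Cyp2e1 was 0.0105, Cidec -0.110, Plin2 -0.200 and Igf1 -0.0971. With library weights Cyp2e1 was 0.0593, Igf1 -0.0540, Ulk1 -0.0362 and BC049987 -0.0797. Without 1 HFD_DSS or CD library the log2 fold changes ran over -0.224 to 0.0478 in Cyp2e1, -0.110 to 0.513 in Cidec, -0.200 to 0.174 in Plin2, -0.0971 to 0.0940 in Igf1 and -0.304 to 0.168 in Ppara, and the median of the glucocorticoid and fasting list over -0.171 to 0.0214. The causes were not tested. Of 145 named genes called, 56 kept the call whichever 1 of the 6 libraries was left out. With 3 libraries a group and HFD_DSS 2 apart from the others, a gene that was not called may still differ.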

Other observations

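Of 28 hepatokine and hormone axis genes, 3 were called higher and 3 lower in HFD_DSS against CD. With 1 of the 6 libraries left out 1 to 4 were called higher and 1 to 5 lower. Called genes made up 21.4% of the list, against 9.34% of all genes. Angptl8, an insulin-induced regulator of lipoprotein lipase, had 26.9, 22.04 and 21.1 FPKM in HFD_DSS livers, against 8.58, 10.7 and 7.43 FPKM in CD livers (log2 fold change 1.31 ± 0.31, limma adjusted p 0.0272). The groups did not overlap. Inhbe, an inhibin beta subunit, was higher (1.10, adjusted p 0.00920), and Igf1, insulin-like growth factor 1, was not called (0.03, adjusted p 0.904). Inhbe kept its call whichever 1 library was left out. Angptl8 lost its call when any 1 library other than HFD_DSS 2 was left out, with adjusted p up to 0.107.

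Of 15 circadian clock genes 2 were called lower (1 to 4 with 1 of the 6 libraries left out). Their share was 13.3%, against 9.34% of all genes called in either direction. The clock repressor gene Cry1 was among the 2 (log2 fold change -0.82, limma adjusted p 0.0115). Of 23 male-biased liver genes 4 were called lower and 1 higher (2 to 4 and 0 to 2), a share of 21.7%. Among 20 major urinary protein genes the only one called (5%) was the pseudogene Mup-ps20 (-1.92), which has many close paralogues. Dnajc12, a co-chaperone, had 39.7, 17.0 and 30.0 FPKM in HFD_DSS livers, against 1.90, 2.30 and 1.20 FPKM in CD livers (3.36 ± 0.56, adjusted p 0.00651). Prtn3, which encodes proteinase 3, a protease best known from neutrophils, had 27.4, 10.2 and 20.9 FPKM in HFD_DSS livers, against 0.353, 0.549 and 0.221 FPKM in CD livers (3.80 ± 0.98, adjusted p 0.0364). Both genes were higher in every HFD_DSS library than in every CD library. Prtn3 passed the filter on low values only through HFD_DSS, the group where it is high, so its call and the separation of its groups are a description. Elane, which encodes neutrophil elastase, stayed at or below 0.553 FPKM in HFD_DSS livers and 0.249 FPKM in CD livers. Dnajc12 kept its call whichever 1 library was left out. Prtn3 lost its call when any 1 library other than HFD_DSS 2 was left out, with adjusted p up to 0.130. Significance was lost for Cry1 without HFD_DSS 1 or HFD_DSS 3 (up to 0.0553) and Mup-ps20 without CD 2, CD 3 or HFD_DSS 1 (up to 0.0954).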
